A study of Mus musculus with 2 samples.

Results

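The genes described here are 10 members of the circadian clock, named by symbol and split into a pair of arms that normally peak at opposite times of day. The Bmal1 arm held 3 genes, Arntl (the gene for BMAL1), Npas2 and Nfil3. The Dbp arm held 7 genes, Per2, Per3, Nr1d1, Nr1d2, Dbp, Tef and Hlf. All 10 were represented on the array, by 24 probe sets in all, among 45037 probe sets that covered 18193 genes.

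RNA came from whole lungs of C57BL/6 mice aged 6 to 8 weeks that had been given Lewis lung carcinoma (LLC) cells by tail vein, 500000 cells in 200 µL, and whose lungs were taken 19 days later. LLC is a transplantable mouse lung carcinoma line. In the vector control group the cells had been transfected with vector, and in the TDAG8 group they overexpressed TDAG8, a receptor that senses extracellular protons and is encoded by Gpr65. All mice of both groups carried injected tumour cells, so no tumour-free lung entered the comparison. RNA of 10 mice was pooled for each group and each pool was read on 1 array. The sources used here do not give the promoter driving TDAG8, the number of transfected clones or the hour at which lungs were removed.

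Because each group had 1 array, no value has an error or a test, and differences describe these pooled RNAs alone. Both arrays had been scaled to a trimmed mean of 100 intensity units. Dim signals were given a floor, the 50th percentile of the array, which came to 26.3 for vector control and 24.3 for TDAG8. Values under it were raised to it, so ratios against them are bounds, written as at least N-fold. A gene is called measured where it lay above the floor on at least 1 array, which held for 11949 genes. Log2 ratios are TDAG8 over vector control, centred on the median of the 11044 genes that cleared the floor on both arrays, where their SD across genes was 0.55. Folds are after centring, and intensities are as deposited. Gpr65 read 32.3 in the vector control array and 73.9 in the TDAG8 array by 1 probe set, 2.38-fold higher, but the species of the transfected sequence is unstated in the sources used here. Lung markers were bright on both arrays: the surfactant gene Sftpc read 7476 and 6605 and the club cell secretory gene Scgb1a1 10112 and 8731.

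The circadian clock is a transcriptional feedback loop that runs in nearly every cell, lung cells included. BMAL1, paired with CLOCK or with its relative NPAS2, binds E-box elements and switches on the Per and Cry genes, the Nr1d genes and the PAR bZIP genes Dbp, Tef and Hlf. PER and CRY proteins then block BMAL1. REV-ERBα and REV-ERBβ, the products of Nr1d1 and Nr1d2, repress Arntl, Npas2 and Nfil3 through elements shared with the ROR activators. DBP, TEF and HLF activate genes through D-box elements, where NFIL3 (also called E4BP4) represses. In lung, the clock is known to gate inflammatory responses of the airway epithelium.

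The promoters of the members were searched for the elements of these circuits. RefSeq promoter windows of build GRCm38.p6, from 250 bases before to 50 bases after a start site, were matched by symbol for 9 of the 10 members, all but Per2, with 11 windows in all. Both strands were searched for the E-box CACGTG, its variant CACGTT, the D-box as TTATGTAA or as TTACGTAA, and the REV-ERB and ROR element as TAGGTCA or as TGGGTCA. None of these letters overlapped in the windows. The stretches printed are those of the 5 members with a match, 5′ to 3′ on the strand of the gene, with matched letters in capitals. Of Arntl only a short site is shown, because its match begins 31 bases into the transcript.
Arntl, chr7:113207530-113207558, + strand, REV-ERB and ROR element: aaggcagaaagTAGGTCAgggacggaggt
Nfil3, chr13:52981040-52981096, - strand, REV-ERB and ROR element 12 bases before the start: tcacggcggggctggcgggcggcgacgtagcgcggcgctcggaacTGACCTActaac
Per3, chr4:151044771-151044915, - strand, D-boxes 205 and 158 bases before the start: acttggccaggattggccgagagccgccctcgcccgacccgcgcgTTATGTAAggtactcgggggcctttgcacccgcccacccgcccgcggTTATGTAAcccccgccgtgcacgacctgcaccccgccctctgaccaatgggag
Nr1d1, chr11:98775378-98775450, - strand, E-box variant 28 bases before the start: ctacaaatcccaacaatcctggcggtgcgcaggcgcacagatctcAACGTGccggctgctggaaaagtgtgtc
Tef, first start, chr15:81802501-81802596, + strand, E-box 127 bases before the start: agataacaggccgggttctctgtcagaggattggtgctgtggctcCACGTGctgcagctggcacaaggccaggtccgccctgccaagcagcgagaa
Tef, second start, chr15:81811231-81811326, + strand, E-box 138 bases before the start: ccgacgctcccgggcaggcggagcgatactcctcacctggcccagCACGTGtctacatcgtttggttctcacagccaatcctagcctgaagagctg

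The REV-ERB and ROR element was found in 1 of the 2 Arntl windows and in the window of Nfil3. Among members of the Dbp arm, the E-box was found in Tef alone, its variant in Nr1d1 alone and the D-box in Per3 alone. Among all 32851 promoter windows of the table, 7.15% held the E-box, 4.68% its variant, 1.06% a D-box and 6.45% a REV-ERB and ROR element. The windows of Npas2, Nr1d2, Dbp and Hlf held none of the letters searched, which says nothing of elements elsewhere in those genes. A match is a description of the sequence, and binding was not measured.

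The Dbp arm was lower in lungs with TDAG8-overexpressing cells for every gene measured. All 7 genes lay above the floor on both arrays and had log2 ratios below 0, whereas 50.1% of all measured genes did. The median of the arm was -0.66, or 1.58-fold lower, against -0.00094 over all measured genes. Single genes ranged from -1.01 for Tef to -0.30 for Dbp. By the limit of 2-fold, 1 of the 7 was counted as lower, against 1.19% of all genes. By a limit of 1.5-fold, added after the values were seen, 5 of the 7 were lower, against 12.1% of all genes. In the Bmal1 arm Arntl, the only gene above the floor on both arrays, was above 0. Nfil3 passed the floor in the TDAG8 array alone, which largely set its sign, and its bound was past 2-fold, as were the ratios or bounds of 5.41% of all genes.

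**Figure D1:**
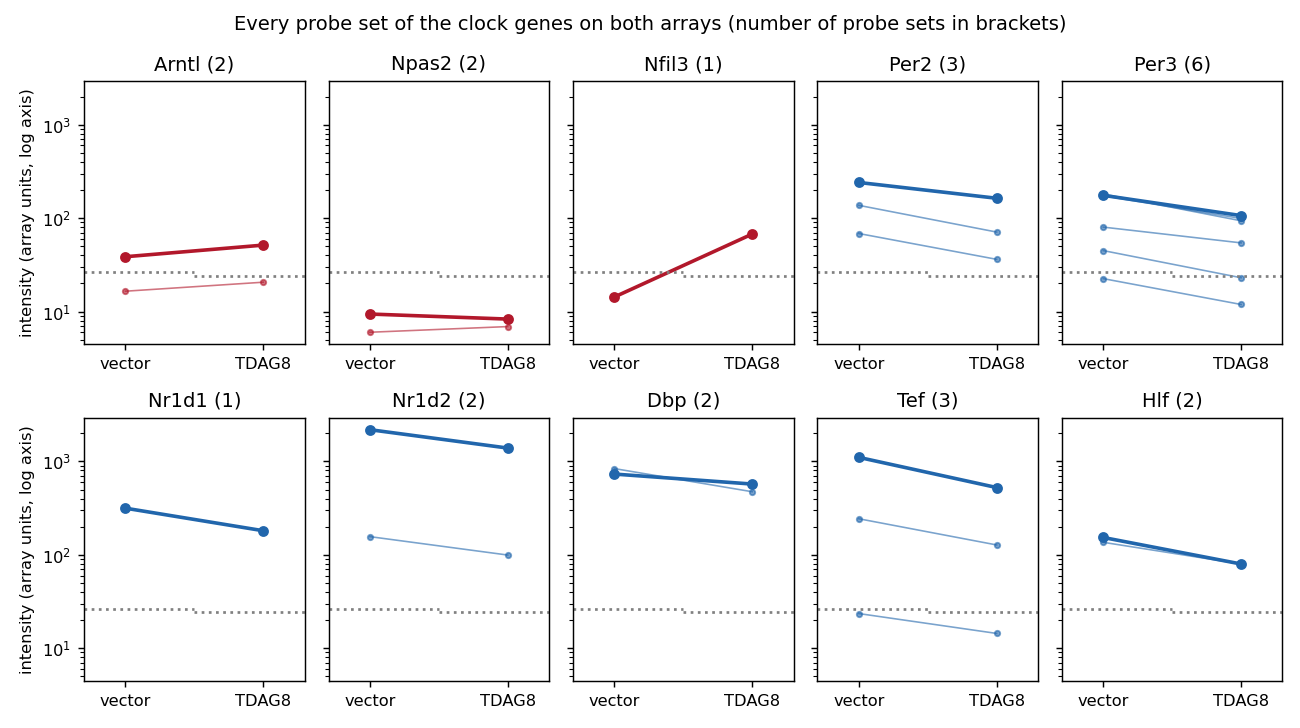
Intensity of all 24 probe sets of the 10 genes on the vector control and TDAG8 arrays, on a log axis, with thick lines for the probe set that stands for the gene, red for the Bmal1 arm, blue for the Dbp arm and dotted lines at the floor of each array (26.3 and 24.3). Every blue line slopes down from vector control to TDAG8, while of the red lines only those of Nfil3 and of 1 Arntl probe set reach above the floor.

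The PAR bZIP activators Dbp, Tef and Hlf are the output factors of the loop, which carry its rhythm to genes of metabolism and detoxification. Tef, the thyrotroph embryonic factor, read 1104 in the vector control array and 525 in the TDAG8 array by its brightest probe set. That is a log2 ratio of -1.01, or 2.02-fold lower, and places Tef just past the 2-fold limit. Only 130 of the measured genes, 1.09%, had a lower ratio. A second probe set went from 243 to 128, 1.83-fold lower, and the third read 23.5 and 14.4, under both floors. The control value was the higher one in all 3.

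Hlf, the hepatic leukemia factor, read 153 and 79.7 by the probe set that stands for it, 1.85-fold lower. Its other probe set went from 136 to 79.7, 1.64-fold lower. Both readings of Hlf thus lay between 1.5-fold and 2-fold lower, and 2.44% of measured genes had a lower ratio than the first.

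Dbp, the albumin D-box binding protein, was the member whose probe sets differed most. The probe set 1438211_s_at, which stood for the gene because its mean log2 intensity was slightly the higher, went from 732 to 572 and was 1.23-fold lower. The probe set 1418174_at went from 838 to 473 and was 1.70-fold lower. Their log2 ratios, -0.30 and -0.76, lay 0.47 apart. The suffix of the first marks a design in which probes can match more than 1 transcript. Both readings were lower in the TDAG8 array, but the position of Dbp within the arm depends on the probe set: with the second, Dbp moves from the smallest difference of the 7 to the third largest. The median of the arm then becomes -0.74.

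The nuclear receptors REV-ERBα and REV-ERBβ form the repressing limb that acts on Arntl. Nr1d1 read 316 in the vector control array and 181 in the TDAG8 array by its only probe set, a log2 ratio of -0.74 or 1.67-fold lower. Nr1d2 went from 2184 to 1389, 1.51-fold lower. A second Nr1d2 probe set went from 156.5 to 99.4 and was also 1.51-fold lower. The paralogs therefore differed between the arrays by similar factors, 0.15 apart on the log2 scale.

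The period genes encode the repressors that close the main loop. Per2 was read by 3 probe sets, all above the floor on both arrays. The brightest went from 241 to 163, 1.42-fold lower, the next from 137 to 70.9, 1.86-fold lower, and the dimmest from 68.4 to 36.2, 1.81-fold lower. The probe set that stood for Per2 thus gave the smallest difference of its 3. Per3, a period paralog with D-boxes in the promoter stretch shown, was read by 6 probe sets. The brightest went from 175 to 106 and was 1.58-fold lower, and the 4 probe sets with both values above the floor ranged from 1.42-fold to 1.86-fold lower. One more went from 44.9 to below the floor, at least 1.77-fold lower, and the last, at 22.5 and 11.9, was under both floors. No probe set of either period gene was higher in the TDAG8 array.

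Taken by probe set, the arm gave 19 readings. Of these, 16 lay above the floor on both arrays, 1 in the vector control alone and 2 on neither. All 16 had log2 ratios below 0, with a median of -0.75 and a range of -1.01 to -0.30. Of the 17 measured on at least 1 array, all were below 0 and 14 were at least 1.5-fold lower, against 51.3% and 11.1% of all 23843 measured probe sets. Probe sets of 1 gene read the same RNA and are not replicates. The raw intensity was lower in the TDAG8 array for all 19, including the 2 under both floors. Without centring, 54.9% of all measured genes had ratios below 0.

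**Figure D2:**
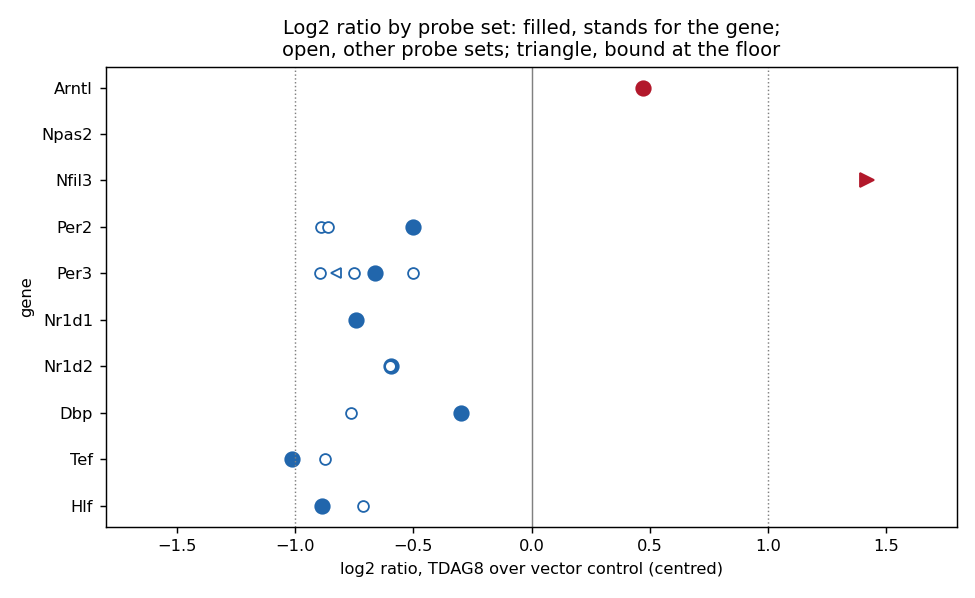
Centred log2 ratio of TDAG8 over vector control for each measured probe set by gene, with filled marks for the probe set that stands for the gene, open marks for other probe sets, triangles for bounds at the floor, and dotted lines at 2-fold. All marks of the Dbp arm lie between -1.01 and -0.30, those of Arntl and Nfil3 at 0.47 and at least 1.42, and Npas2 has no mark.

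The order of the 7 genes, from the lowest ratio up, was Tef, Hlf, Nr1d1, Per3, Nr1d2, Per2 and Dbp. Gaps between neighbours in this order ran from 0.067 to 0.21. As a yardstick, the median SD between probe sets of the same gene was 0.18 over the 4775 genes with several of them above the floor on both arrays. The gaps up to Per2 were below that spread, and the gap of 0.21 between Per2 and Dbp was below the difference between the 2 probe sets of Dbp. The SD of the ratios across the 7 genes was 0.24, against 0.55 across all genes that cleared the floor on both arrays. The order of neighbouring genes is therefore not resolved by these data. The yardstick holds spread between probe sets on the same arrays, not between samples, so it cannot settle the order of genes further apart.

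The Bmal1 arm was read close to or under the floor. Arntl, the E-box activator itself, read 38.6 in the vector control array and 51.4 in the TDAG8 array by the probe set 1425099_a_at, a log2 ratio of 0.47 or 1.39-fold higher. Of the measured genes 18.7% had a higher ratio. A second Arntl probe set, at 16.5 and 20.6, lay under the floor on both arrays. Arntl was thus above the floor by 1 reading, close to it, and below the 1.5-fold limit.

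Nfil3, the repressor that competes with DBP, TEF and HLF at D-boxes, had 1 probe set. It read 14.3 in the vector control, under the floor, and 67.5 in the TDAG8 array, so it was at least 2.67-fold higher, a bound of 1.42 on the log2 scale. Only 2.38% of measured genes had a higher ratio or bound. A gene below the floor in the control alone can hardly have a lowered ratio, so its sign follows largely from that. When the 65th percentile, 62.0 and 59.9, served as the floor, the bound fell to 0.16 on the log2 scale.

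Npas2, the partner of BMAL1 that can replace CLOCK, was read by 2 probe sets, at 9.4 and 8.3 and at 6.0 and 6.9. All 4 values lay under the floor, so Npas2 has no ratio here. The contrast between the arms hence rests on Arntl and Nfil3 on one side. With Arntl alone, which was above the floor on both arrays, the distance to the median of the Dbp arm was 1.13 on the log2 scale. With Nfil3 at its bound, the median of the 2 genes was at least 0.94 and the distance at least 1.61, values set in part by the floor. The lowest ratio of the measured Bmal1 arm, that of Arntl, stood 0.77 above the highest of the Dbp arm, that of Dbp.

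**Figure D3:**
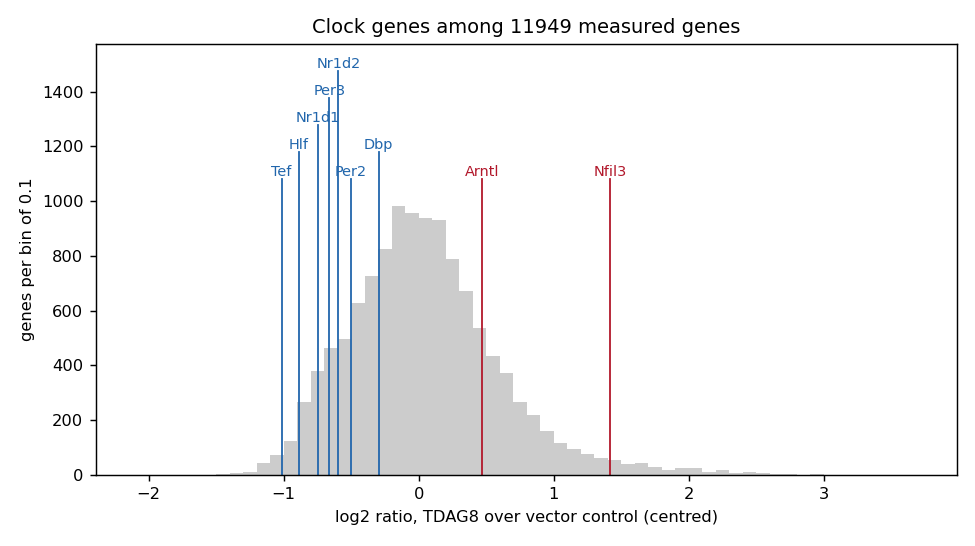
Histogram of centred log2 ratios of the 11949 measured genes in bins of 0.1, with lines for the 9 measured clock genes, blue for the Dbp arm and red for the Bmal1 arm. The Dbp arm stands in the lower part of the distribution, from Tef at -1.01 to Dbp at -0.30, and Arntl at 0.47 and Nfil3 at its bound of 1.42 in the upper part.

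Other genes of the loop were read from lists of 14 genes. Among E-box targets and repressors, 8 of 8 were above the floor on both arrays, 5 were below 0 and 3 were above, none was 2-fold different, and the median log2 ratio was -0.31, which became -0.55 with the floor at the 65th percentile. Per1, the third period gene, went from 329 to 185 and was 1.71-fold lower. Cry2, a cryptochrome that blocks BMAL1, went from 215.5 to 129, 1.60-fold lower. Ciart, a repressor of the CLOCK and BMAL1 pair, went from 142 to 94.2, 1.44-fold lower. Usp2, a ubiquitin protease under clock control, went from 207.5 to 106 and was 1.88-fold lower, although its second probe set gave a log2 ratio of -0.38. These 4 genes lay within the range of the Dbp arm. The rest of the list did not: Bhlhe40, a clock repressor also induced by other stimuli, was at 0.07, Wee1, a kinase of the cell cycle, at 0.07, Bhlhe41 at -0.09 close to the floor, and Nampt, an enzyme of NAD synthesis, at 0.51. The other probe sets of Wee1 and Nampt reached down to -0.36 and 0.07.

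Among activators and genes that follow the phase of Bmal1, 4 of 5 on the array were measured, 2 above and 2 below 0, with a median of 0.08. That median was -0.17 when all probe sets of a gene were averaged and -0.04 with the higher floor, so it has no settled sign. Clock, the main partner of BMAL1, read 192 and 209, at 0.18 on the log2 scale, but its probe sets reached down to -0.86. Cry1 read 129 and 122, at -0.02. Rora, an activator of Arntl at the elements where the REV-ERB proteins repress, went from 451 to 247, 1.75-fold lower. Its 6 probe sets above the floor ranged from -0.89 to -0.69. Arntl2, a paralog of Arntl, was under the control floor and at 43.2 in the TDAG8 array, at least 1.71-fold higher, while Rorb was under the floor on both. The sign of Arntl2 was largely set by the floor, and that of Clock differed between its probe sets.

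Genes that DBP, TEF and HLF are known to activate in liver were listed as well. Of 8 listed genes 5 were measured, all had ratios below 0 and none was 2-fold lower by the probe set that stood for it, with a median of -0.38. Cyp2b10, a xenobiotic-metabolising P450 that club cells of the airway express too, went from 1782 to 856, 2.00-fold lower to 3 digits and just short of the limit, while its probe sets ranged from -1.08 to -0.84 on the log2 scale, so that the count depends on the probe set. Alas1, the first enzyme of heme synthesis, was at -0.44, the carboxylesterase gene Ces1d at -0.38, the glutathione transferase gene Gstt1 at -0.36 and the pyridoxal kinase gene Pdxk at -0.04. Nr1i3, the receptor CAR, lay under the floor on both arrays.

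Markers of vessel, muscle and epithelial cells of the lung were lower as well, while those of fibroblasts were mixed. All 12 endothelial genes were below 0, with a median of -0.75 and a summed intensity of 10378 in the vector control array and 6162 in the TDAG8 array. The ciliated cell list had a median of -0.80 and sums of 2281 and 1298. Its 7 genes above the floor on both arrays were below 0, and the sign of the other 2, above it in the vector control alone, was fixed by the floor. All 6 measured smooth muscle genes were below 0, at -0.73 with sums of 3746 and 2456. Medians were -0.54 for 8 alveolar type 1 genes, -0.48 for 7 alveolar type 2 genes and -0.44 for 6 club cell genes, all of them below 0, with sums that went from 21402 to 14864, from 30372 to 22545 and from 38946 to 28951. The Dbp arm itself, summed over its 7 genes, went from 4905 to 3016, 61.5% of the control, beside 59.4% for endothelial, 56.9% for ciliated and 69.4% for alveolar type 1 genes. Its median of -0.66 lay inside the range of these lists, from -0.80 to -0.44. By the limit of 1.5-fold, 9 of 12 endothelial, 8 of 9 ciliated and 5 of 6 smooth muscle genes were lower, beside 5 of 7 in the Dbp arm. The counts were 3 of 8 for alveolar type 1, 2 of 6 for club cell and 0 of 7 for alveolar type 2 genes, against 12.1% of all genes. The alveolar type 2 gene Sftpc was at -0.12. Of 8 fibroblast genes 5 were below and 3 above 0, from -0.90 for Mfap4 to 1.14 for Lum, and their sum was 93.0% of the control. The fibroblast median of -0.32 became -0.08 when probe sets that can match several transcripts were left out. In whole-lung RNA, fewer cells of a type and less RNA per cell cannot be told apart, and the part of lung cell content in the lower Dbp arm was not tested. None of the measured vessel, muscle and epithelial markers was at 0, and each was above the floor in the vector control.

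Markers of dividing and myeloid cells lay on the other side. The proliferation list had a median of 2.22, with 13 of 13 measured genes above 0, 12 of them by 2-fold or more, and sums of 2545 and 7899. The monocyte and macrophage list had a median of 1.14, 9 of 10 measured genes above 0, 6 of them by 2-fold or more, and sums of 9298 and 10327. Most of both sums came from Lyz2, the gene below 0, which read 6650 and 6002, at -0.09. In that list 1 gene was above the floor in the TDAG8 array alone. The neutrophil list had a median of 0.45, 6 of 6 measured genes above 0 and sums of 1276 and 1741. The T and natural killer cell list had a median of 0.11, with 7 of 9 above 0 and sums of 747 and 703, so its median and its summed level differed in direction. Of the 9, 6 were above the floor on both arrays, 2 in the TDAG8 array alone and 1 in the vector control alone. The floor thus entered the count and median of this list. The B cell list had a median of -0.34. Nfil3 is expressed by myeloid and lymphoid cells and Arntl in nearly all cells. The part of incoming or dividing cells in the higher Nfil3 signal was not tested.

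**Figure D4:**
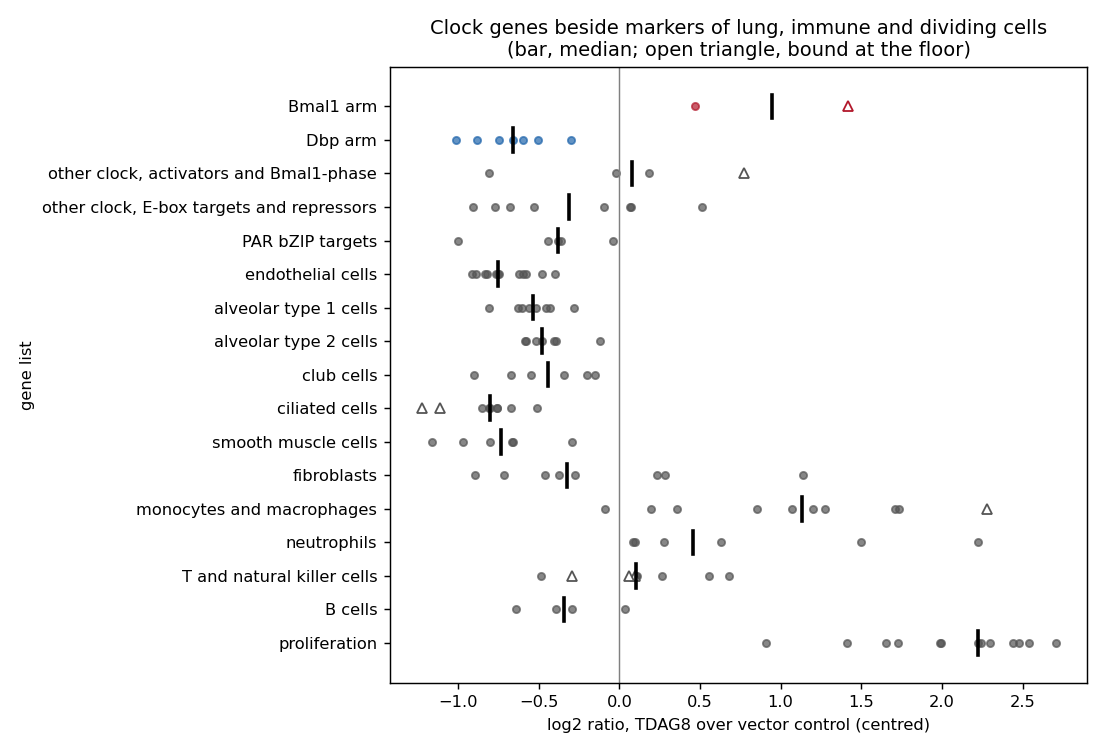
Centred log2 ratio of TDAG8 over vector control for measured genes of both arms, of other clock and PAR bZIP target lists and of cell marker lists, with 1 mark per gene, a bar at the median and open triangles for bounds at the floor. The Dbp arm, median -0.66, lies among endothelial (-0.75), ciliated (-0.80) and alveolar type 1 (-0.54) lists, and the proliferation list lies highest, at 2.22.

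The directions of both arms were compared across 8 other ways of processing the intensities. All 7 genes of the Dbp arm stayed below 0 in each, and the arm median ranged from -0.74 to -0.54. Every measured value of Arntl and Nfil3 stayed above 0. The range was 0.33 to 0.58 for Arntl in the settings that measured it and 0.16 to 2.32 for Nfil3. Nfil3 cleared the floor on both arrays only with the lower floor, at 2.32, and needed no floor with an offset, at 1.28. In the other settings its value was a bound, so its sign followed largely from the floor. Npas2 gained a value under 2 of the settings, -0.10 with the lower floor and -0.03 with an offset, so the third gene of the Bmal1 arm was not higher there. The gap between the lowest gene of the Bmal1 arm and the highest of the Dbp arm, reported as 0.77, was 0.18 and 0.22 in these settings. The median of the Bmal1 arm ranged from 0.16 to 1.44 and the distance between the arms from 0.84 to 2.16. At both ends neither Arntl nor Npas2 was measured, so the arm was the bound of Nfil3 alone.

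**Figure D5:**
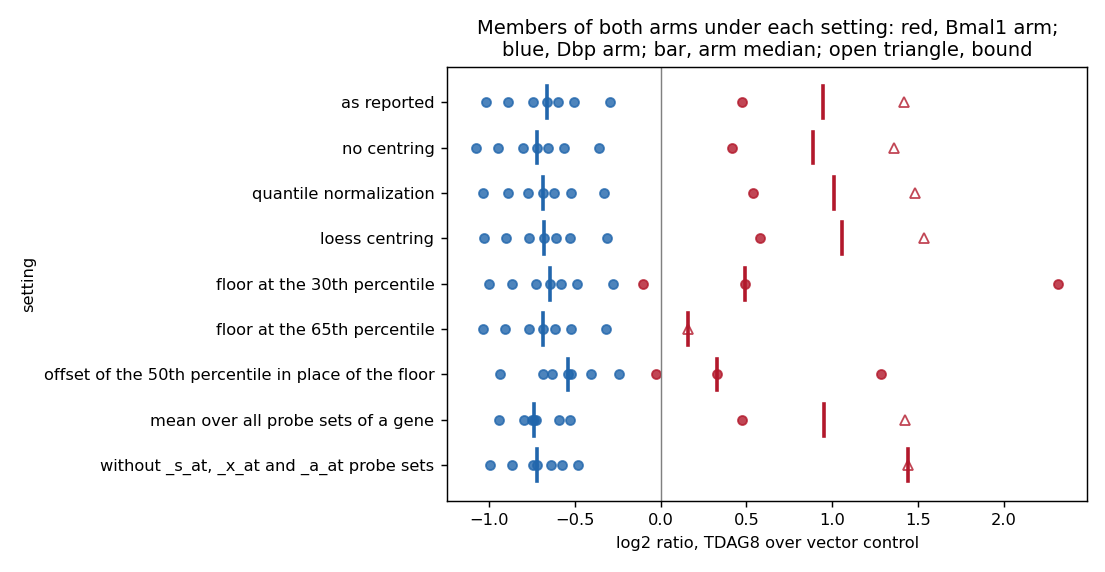
Log2 ratio of TDAG8 over vector control for each measured member under the reported and 8 other settings, with red for the Bmal1 arm, blue for the Dbp arm, bars at arm medians and open triangles for bounds. Blue marks stay below 0 in each setting, with medians from -0.74 to -0.54. The red medians vary from 0.16, with the higher floor, to 1.44, without probe sets ending in _s_at, _x_at or _a_at. At both of these ends Nfil3 is the only red gene.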

How the data were processed

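Whole-lung RNA of 10 mice a group was pooled, and 2 µg of each pool was labelled as biotinylated cRNA by the Affymetrix procedure, per the labels' protocols. The authors deposited intensity values on a linear scale, 1 per probe set, and both columns have a trimmed mean of 100 (2% off each end). The sources used here do not name the software that made them. Of 45101 probe sets 64 controls were left out. Only the 34945 with 1 gene symbol in the platform annotation were used for genes, 932 had several symbols and 9160 none. Each gene was represented by its probe set of highest mean log2 intensity. Floor, centring shift (-0.06 on the log2 scale) and 2-fold limit are as the report gives them; the authors deposited no ratio. Column medians differed by -0.11. Named genes were all members and all measured genes of both lists of other clock genes. From the other lists, named genes were among the brightest gene and those with the largest ratios, apart from the following lists. All PAR bZIP targets were named after their values were seen, and genes of the kinase, ligase and cofactor list were not named by that rule. The members and the 20 lists were chosen with earlier results of these data known, so none is independent support. Ratios were computed with Python 3.11.15, numpy 2.4.6, pandas 2.3.3 and statsmodels 0.14.6. The computation was checked on arrays simulated from these data with known ratios put in. That check covered bright genes and the Dbp arm, not the dim Bmal1 arm. Alternatives were no centring, quantile normalization, loess (span 0.3), a floor at percentile 30 or 65, an offset, the mean over probe sets, and no probe sets ending in _s_at, _x_at or _a_at. Genome coordinates are given for RefSeq promoters only.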

Additional observations from a re-analysis of the deposited data

How the results depend on the processing

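A value counted as moved when it differed by more than the spread of 0.18 between probe sets of a gene, or a count by more than 1.5 times. Of 70 recomputed values of single members 64 stayed within that, 6 moved and 0 turned sign. The Bmal1 arm median of 0.94, which includes the bound of Nfil3, became 0.49 with the lower floor and 0.16 with the higher floor (Nfil3 alone). It became 0.33 with an offset and 1.44 without probe sets ending in _s_at, _x_at or _a_at (Nfil3 alone). With Arntl alone it was 0.47. The distance between the arms became 1.13, 0.84, 0.87, 2.16 and 1.13 in the same order. The count of members at least 2-fold higher was 0 with the higher floor. The count at least 2-fold lower rests on Tef at -1.01. It was 0 with the lower floor, with an offset, with averaged probe sets and without probe sets of those endings. Tef then lay just short of the limit and at most at -0.94. The count was 5 at the added limit of 1.5-fold. Over all genes, 646 higher became 419 with the higher floor and 1722 at 1.5-fold, and 142 lower became 345 with the lower floor, 68 with the higher floor, 19 with an offset and 1441 at 1.5-fold. Dbp went from -0.30 to -0.53 when probe sets were averaged and to -0.74 without probe sets of those endings. No paired analysis was possible because each group had 1 array. Signal over background limits Arntl, Nfil3 and Npas2.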

Other observations

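Genes that modify clock proteins after translation, or act with them, were read mostly close to 0. Of 12 listed kinases, ligases and cofactors 10 were measured, 7 above and 3 below 0, none was 1.5-fold different by the probe set that stood for it, and the median log2 ratio was 0.04, which turned to -0.02 without centring. Other probe sets reached -0.82 for the kinase gene Gsk3b and -0.65 for Cipc, a CLOCK-interacting protein. Csnk1d, the casein kinase that marks PER proteins for decay, read 502 and 498, and its relative Csnk1e 321 and 292. The highest ratio was that of Timeless, a replication fork protein in mammals, at 0.55.

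Genes induced by glucocorticoids, hormones with a daily rhythm of their own, had a median of -0.30, with 9 of 12 below 0. Zbtb16, a zinc finger repressor, went from 947.5 to 450, 2.02-fold lower, and Klf9, a glucocorticoid-induced factor with a daily rhythm, from 3646 to 2113, 1.66-fold lower. The metallothionein gene Mt2, also induced by metals and inflammation, went the other way, from 379 to 1182, 3.25-fold higher. The hypoxia and glycolysis list had a median of 1.12, with 10 of 11 measured genes above 0, and 1 gene passed the floor in the TDAG8 array alone.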
